A study of Mus musculus with 24 samples.

Results

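The Myc network was followed as 10 genes, Myc, Mycl, Mycn, Max, Mxd1, Mxi1, Mxd3, Mxd4, Mnt and Mga, which were chosen by symbol, with earlier results of these data known. All 10 were found among the 25239 genes of the table of TPM values (a level scaled to transcript length and to a fixed library total), and all 10 were among the 14104 genes tested, those that reached 1 TPM in 3 or more libraries. Myc, L-Myc (encoded by Mycl) and N-Myc (Mycn) are transcription factors that pair with Max, bind the E box CACGTG and switch on genes for ribosome production, nucleotide synthesis and growth. Max also pairs with the proteins of Mxd1, Mxi1, Mxd3, Mxd4, Mnt and Mga, and these pairs bind the same kind of site and repress it, through Sin3 and histone deacetylases for the Mxd proteins and Mnt and through a Polycomb complex, PRC1.6, for Mga. In small cell lung cancer (SCLC) the Myc paralogs are often amplified, usually singly, and which of them is active has been used to tell variants of the disease apart.

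Expression was measured by mRNA sequencing in 6 cell lines grown from individual SCLC tumors of Rb1 fl/fl; Trp53 XTR/XTR; Rbl2 fl/fl; Rosa26 FlpO-ER mice of mixed background, in which inhaled adenoviral Cre under the CMV promoter is designed to delete floxed Rb1 and Rbl2 sequence and to close the gene trap in Trp53. All 8 groups share these alleles, and each line comes from 1 tumor. Of the 6 lines 3 share the prefix 4711 and 3 the prefix 4716, and the labels do not say whether a prefix marks a mouse, so lines may share an animal. The study sorted the lines by their fate after p53 is restored. Type D lines (4711-1, 4711-18 and 4716-11, here replicates 1, 2 and 3) die, and Type V lines (4711-11, 4716-10 and 4716-14, replicates 1, 2 and 3) stay viable. Each line gave 4 libraries at 72 h: vehicle (Control), cyclosporin A, a drug that binds cyclophilins (Control + CsA), 4-hydroxytamoxifen, which activates FlpO-ER to remove the trap from Trp53 (Restored), and both agents (Restored + CsA). The 24 libraries thus form 8 groups of 3 lines. The levels asked whether the lines differ in their Myc paralog and its antagonists, and whether restored p53 or CsA moved them.

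The trapped gene Trp53 separated the libraries as they are labelled, at 10.5 to 15.3 TPM without restoration (12 libraries) and 182 to 253 TPM with it (12 libraries). The floxed genes still gave signal, which gene-level TPM cannot split by exon: Rb1 stood at 7.36 to 17.3 TPM without restoration and 21.1 to 68.8 with it, rising by 1.595 and 1.97 on the log2 scale in Type D and Type V (limma adjusted p = 0.00113 and 0.000204), and Rbl2 at 4.49 to 20.6 TPM throughout. Of the neuroendocrine genes that mark the labelled tumor, Neurod1 reached at most 0.0954 TPM and Chga was listed at 0 in all 24 libraries, while Insm1, Uchl1 and Ncam1 reached 49.6, 40.9 and 27.3 TPM. The summed TPM of 10 such markers in Control was 12.7, 9.63 and 20.5 in Type D and 79.4, 33.0 and 49.6 in Type V. Type D differed from Type V in Control by -4.01 in Uchl1 (limma adjusted p = 1.05e-05), while Insm1 and Ncam1 did not pass (0.304 and 0.536). Among the other SCLC subtype factors, Pou2f3 stayed at or under 0.0821 TPM and Yap1 lay between 93.5 and 571 TPM. Fibroblast markers separated the types: the summed TPM of 6 markers was 0.304 to 1.93 in the 12 Type D libraries and 75.3 to 563 in the 12 Type V libraries, with Col1a2, Pdgfrb and Dcn at 1 TPM or more in 12 of 12 Type V libraries and 0 of 12 Type D libraries, Col1a1 in 10 and 2, Pdgfra in 2 and 0, and Lum in 0 of either. In Type V the sum was 192, 494 and 353 TPM in Control and 176, 193 and 88.7 TPM in Restored. The blood and vessel markers Ptprc, Cd3e, Pecam1 and Cdh5 stayed under 1 TPM in every library. Csf1r reached 1.53 TPM and was at 1 TPM or more in 4 libraries. Cd68, at up to 55.3 TPM, rose on restoration by 1.95 and 1.28 on the log2 scale in Type D and Type V (limma adjusted p = 0.000134 and 0.00766). What part these differences have in the values below was not tested. TPM keeps no counts, so depth is unknown.

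Promoters were read from RefSeq for 9 of the 10 genes (GRCm38.p6, 250 bases before to 50 after the start, 11 promoters). The E box CACGTG, which reads the same on both strands, lay in 3 of these 11 promoters, those of Max, Mnt and Mxd4. It lay in 7.15% of all 32851 promoters of that length. Shown are the upstream bases of these 3 genes and of Mxd1 and Mxd3, the antagonists that moved most on restoration, from 5′ to 3′ along the gene's strand, with the E box in capitals where there is one.
Max, chr12:76962246-76962498, minus strand: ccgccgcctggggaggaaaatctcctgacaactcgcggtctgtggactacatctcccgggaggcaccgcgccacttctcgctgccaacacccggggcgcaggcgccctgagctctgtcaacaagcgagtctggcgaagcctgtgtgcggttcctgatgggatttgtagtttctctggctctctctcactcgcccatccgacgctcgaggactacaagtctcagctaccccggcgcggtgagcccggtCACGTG
Mnt, chr11:74830674-74830923, plus strand: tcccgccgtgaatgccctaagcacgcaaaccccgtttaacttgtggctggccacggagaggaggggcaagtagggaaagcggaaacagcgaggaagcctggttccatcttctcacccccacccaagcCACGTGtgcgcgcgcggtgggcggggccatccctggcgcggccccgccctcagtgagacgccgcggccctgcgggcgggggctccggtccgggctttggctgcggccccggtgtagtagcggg
Mxd4, chr5:34187711-34187960, minus strand: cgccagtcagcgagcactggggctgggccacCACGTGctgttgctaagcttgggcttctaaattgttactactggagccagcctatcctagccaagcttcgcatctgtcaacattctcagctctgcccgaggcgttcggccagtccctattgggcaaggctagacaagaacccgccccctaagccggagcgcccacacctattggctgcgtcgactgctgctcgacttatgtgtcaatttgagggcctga
Mxd1, chr6:86669160-86669409, minus strand: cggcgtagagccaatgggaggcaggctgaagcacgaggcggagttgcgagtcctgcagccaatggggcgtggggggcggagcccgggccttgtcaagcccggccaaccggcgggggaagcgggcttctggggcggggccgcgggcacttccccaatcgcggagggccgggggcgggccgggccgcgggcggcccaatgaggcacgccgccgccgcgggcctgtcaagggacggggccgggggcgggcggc
Mxd3, chr13:55329732-55329981, minus strand: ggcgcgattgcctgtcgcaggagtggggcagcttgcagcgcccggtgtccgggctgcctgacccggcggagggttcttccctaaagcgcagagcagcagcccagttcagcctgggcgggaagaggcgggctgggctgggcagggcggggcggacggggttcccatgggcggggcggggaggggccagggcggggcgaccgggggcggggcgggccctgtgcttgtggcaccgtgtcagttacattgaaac
In Max the E box spans the annotated start, beginning 3 bases before it. In Mnt it begins 123 bases and in Mxd4 219 bases before the start. The windows of Mxd1 and Mxd3 hold no CACGTG. In the GRCm38 annotation (GENCODE M21) Myc lies on chromosome 15 from 61985391 to 61990374, Mycl on chromosome 4 from 122995652 to 123002485 and Mycn on chromosome 12 from 12936093 to 12941914.

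Myc was the main paralog in every line. It made up 86.6 to 99.97% of the summed TPM of the 3 paralogs over the 24 libraries, with a median of 97.6%. In Control its TPM was 259, 147 and 362 in Type D replicates 1, 2 and 3 and 228, 162 and 164 in Type V replicates 1, 2 and 3, so that the ranges overlapped. It ranked first among the 10 genes in all 4 groups of Type D and in Control and Control + CsA of Type V. The next genes in Control were Mxd4, Max, Mxi1 and Mnt in Type D and Mxd4, Mnt and Max in Type V, with overlapping ranges between neighbours in that order. Mycl and Mycn were at the lower end in both types.

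Mycl, the paralog first described in SCLC, was low and uneven. Its TPM in Control was 13.2, 3.67 and 14.8 in Type D and 0.254, 1.13 and 2.79 in Type V, so every Type D line was above every Type V line. Type D replicate 2 was the lowest of its type. Mycn, the paralog of neural development, was carried by 1 line of each type. Its TPM in Control was 0.379, 19.2 and 1.1 in Type D and 0, 14.4 and 4.01 in Type V. Replicate 2 of each type, lines 4711-18 and 4716-10, was the high line, and 4711-18 was also the Type D line with the least Myc and the least Mycl. Mycn made up 11.3% of the paralog TPM in that library, its largest share in any of the 24.

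**Figure D1:**
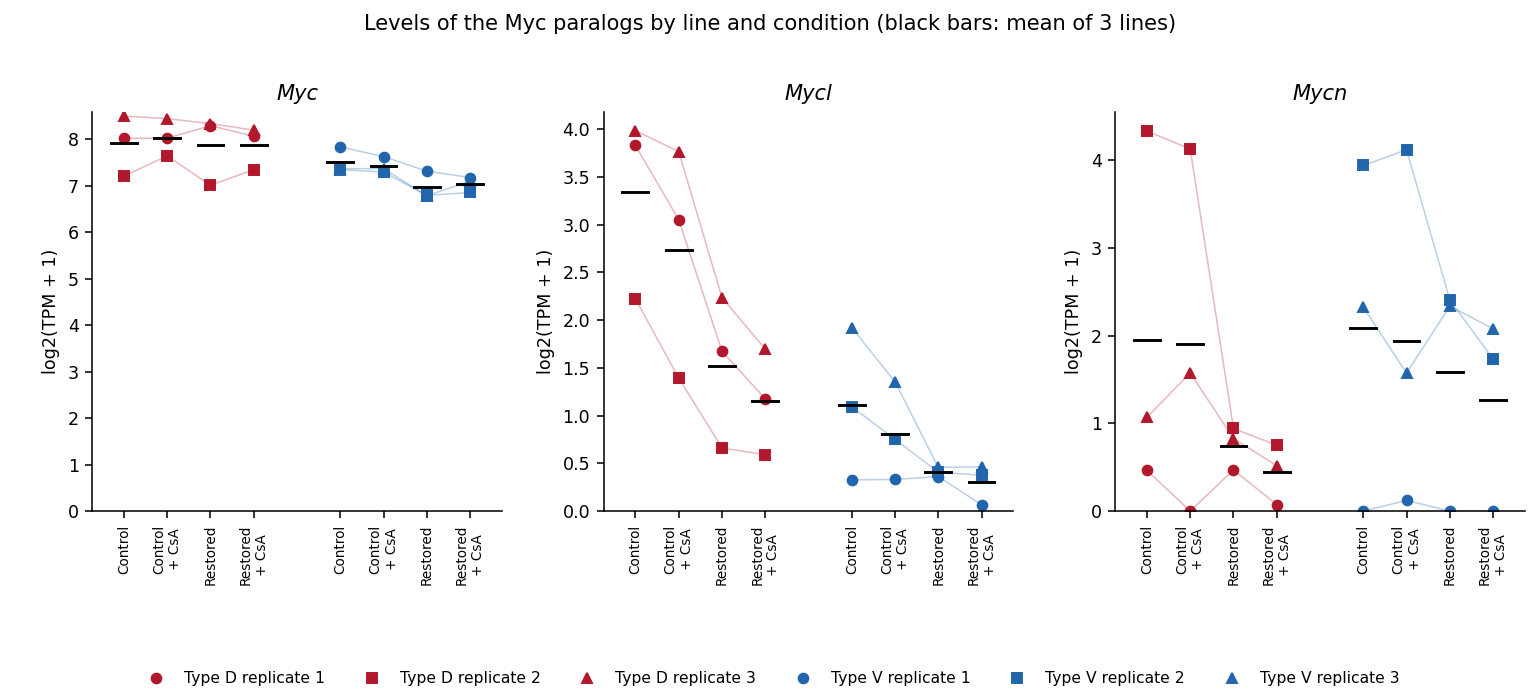
Levels of Myc, Mycl and Mycn as log2(TPM + 1) (y axis) in the 4 conditions (x axis) for Type D (red) and Type V (blue), 1 symbol for each line joined over conditions and a black bar for the mean of 3 lines. Myc stays high in all 24 libraries, Mycl is higher in the Type D lines in Control, and Mycn is high only in replicate 2 of each type before restoration.

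Between the types in Control, 2 of the 10 genes passed, Mycl and Mxd1, both higher in Type D. Over all genes tested 13.1% passed in this comparison, so the count of 2 is close to the background and the result is about these 2 genes. Mycl was higher by 2.23 ± 0.57 (SE) on the log2(TPM + 1) scale (limma adjusted p = 0.0135). The call rested on single lines: without Type D replicate 1, Type D replicate 3 or Type V replicate 1 the adjusted p was 0.114, 0.0578 and 0.0947. Without the same 3 lines the difference was 1.99, 1.91 and 1.84. Myc itself differed by 0.39 ± 0.34 (limma adjusted p = 0.494, 95% interval -0.28 to 1.07), and Mycn by -0.13 ± 1.20 (limma adjusted p = 0.963, interval -2.49 to 2.22). Without Type D replicate 2, Myc was higher in Type D by 0.74 and passed (limma adjusted p = 0.0324), as did Mxi1 (0.99, adjusted p = 0.00775). Each passed only in that 1 of 6 fits that left out a line. Over these fits Myc differed by 0.098 to 0.74 and Mxi1 by 0.48 to 0.99. The 4 libraries of a line are not separate lines, so the spread between lines rests on 6 lines, which may come from fewer mice, and a fit of the 2 groups alone passed 0 of the 10 genes.

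On restoration no change of Myc was detectable in Type D, where it stood at 313, 128 and 324 TPM against 259, 147 and 362 in Control. The change was -0.03 ± 0.34 on the log2 scale (limma adjusted p = 1, 95% interval -0.70 to 0.65), upward in 1 line and downward in the other two. In Type V it went from 228, 162 and 164 to 159, 110.1 and 109.5 TPM, lower in 3 of 3 lines by similar amounts (-0.52, -0.56 and -0.58). That difference of -0.55 ± 0.34 did not pass without the cell line as a block (limma adjusted p = 0.39) and passed with it (0.00265). The test of the difference between the types in this change did not pass (0.52, limma adjusted p = 1, and 0.098 with the block), nor did it for any other of the 10 genes, of which 0 had an unadjusted p under 0.05 and 0 passed with the block, where 0.0284% and 5.57% of all genes passed. In the Restored condition Myc in Type D exceeded Myc in Type V by 0.92 ± 0.34 (limma adjusted p = 0.081, and 0.0317 with the block), with Type D replicate 2 at 128 TPM inside the Type V range. Without that line the difference was 1.35 and passed (adjusted p = 0.000693), and so did that of Mycl (1.55, adjusted p = 0.0227). Each passed only in that 1 of 6 fits that left out a line, with differences of 0.69 to 1.35 for Myc and 0.76 to 1.55 for Mycl.

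Mycl fell in Type D, from 13.2, 3.67 and 14.8 to 2.19, 0.581 and 3.71 TPM. All 3 lines were lower, by 1.56 to 2.16 on the log2 scale according to line, and the groups overlapped only through replicate 2, whose Control value of 3.67 lay just under the highest Restored value. The mean change was -1.82 ± 0.57 (limma adjusted p = 0.042, and 3.43e-05 with the block). It did not pass with a pseudocount of 0.1 (-2.33, adjusted p = 0.104), without the filter (0.0605), in the 2 groups alone (0.142) or in 5 of 6 fits that left out a line (0.0523 to 0.273). It passed only without replicate 2 of Type D, the line with the least Mycl. In Type V the values in Control were already low, and Restored values were 0.285, 0.326 and 0.374 TPM (-0.70 ± 0.57, limma adjusted p = 0.551, and 0.0362 with the block).

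Mycn in the line with the highest value, Type D replicate 2, went from 19.2 to 0.921 TPM on restoration and, with CsA, from 16.5 to 0.681. In Type V replicate 2 it went from 14.4 to 4.31 TPM and, with CsA, from 16.4 to 2.33. The remaining lines were at or under 4.05 TPM throughout, and Type V replicate 3 stood at 4.01 before and 4.05 after restoration. As means over lines the changes were -1.21 ± 1.20 in Type D and -0.51 ± 1.20 in Type V, and neither passed (limma adjusted p = 0.609 and 0.895). Before restoration 4 of 12 libraries exceeded 14 TPM and these belonged to lines 4711-18 and 4716-10. After it the highest value in any library was 4.31 TPM.

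Max, the shared partner, moved little. It lay between 34.6 and 67.5 TPM in the 24 libraries, with means of 59.8 ± 7.61 (SD, n = 3) in Type D and 47.0 ± 4.82 in Type V in Control and of 56.5 ± 5.37 and 41.0 ± 7.51 in Restored. In Control, every Type D line was above every Type V line, by 0.34 ± 0.16 on average (limma adjusted p = 0.19). In Restored the groups were again separate, at 52.2 to 62.5 TPM against 34.6 to 49.3 (0.46 ± 0.16, limma adjusted p = 0.0656, and 0.0237 without Type V replicate 2). This difference passed only in that 1 of 6 fits that left out a line. Restoration changed Max by -0.08 ± 0.16 in Type D and -0.20 ± 0.16 in Type V (limma adjusted p = 0.863 and 0.551). Relative to the summed paralogs, Max TPM was 0.139 to 0.43 in the 24 libraries, so that the mRNA of Max was below that of Myc in each.

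Mxd1, whose protein Mad1 replaces Myc on Max as cells leave the cycle, rose on restoration in every line. In Type D it went from 19.1, 14.4 and 10.5 to 57.4, 61.8 and 29.3 TPM, and in Type V from 5.22, 5.95 and 6.6 to 12.3, 16.9 and 13.1 TPM. No Restored value was as low as a Control value of the same type, so the groups did not overlap. The rise was 1.65 ± 0.29 for the Type D lines (limma adjusted p = 0.000735, and 1.69e-05 with the block) and 1.12 ± 0.29 for the Type V lines (0.0186, and 0.00065 with the block). It was 0.54 larger in Type D, a difference that did not pass (limma adjusted p = 1, and 0.309 with the block). In Type D the rise passed in all 6 fits that left out a line, and in Type V in 3 of 6, with an adjusted p of 0.124, 0.138 and 0.0763 without Type V replicate 1, 2 and 3. In the 2 groups alone the adjusted p was 0.0525 and 0.0911. With CsA in both arms the rise was 1.11 ± 0.29 for Type D (limma adjusted p = 0.0209, 0.00068 with the block, and 0.233 without Type D replicate 2) and 0.88 ± 0.29 for Type V (0.075, and 0.00424 with the block). Over all genes, 7.82% passed as higher on restoration in Type D lines and 5.38% in Type V lines. As in any bulk sample, more cells that express a gene and more of its RNA in each cell cannot be told apart.

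Mxd1 also had higher means in Type D lines in each condition. In Control the Type D lines stood at 10.5 to 19.1 TPM and the Type V lines at 5.22 to 6.6, a difference of 1.15 ± 0.29 (limma adjusted p = 0.0131, and 0.0504 with the block). In Restored the lines stood at 29.3 to 61.8 and 12.3 to 16.9 TPM (1.68 ± 0.29, limma adjusted p = 0.000723, and 0.00536 with the block), again without overlap. This call in Restored held in 6 of 6 fits that left out a line and in the fit of the 2 groups alone. The call in Control was lost when replicate 1 of Type D (0.95, adjusted p = 0.104) or of Type V (1.07, adjusted p = 0.0703) was left out. With CsA the difference was 0.72 ± 0.29 in Control (limma adjusted p = 0.107) and 0.95 ± 0.29 in Restored (0.0406, and 0.116 with the block). The latter did not pass when replicate 1 or 2 of Type D or replicate 1 or 3 of Type V was left out (0.0649 to 0.199).

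Mxi1, a further Mxd family member, had its highest values in restored Type D lines 1 and 3. Its TPM in Type D was 43.4, 38.3 and 78.2 in Control and 99.5, 41.4 and 112.7 in Restored, while in Type V it was 33.2, 26.5 and 27.6 in Control and 40.6, 36.6 and 34.3 in Restored. Each of the 6 lines was higher in Restored, but replicate 2 of Type D by only 0.11. The changes of 0.60 ± 0.35 in Type D and 0.35 ± 0.35 in Type V did not pass (limma adjusted p = 0.301 and 0.653), and that in Type D passed with the block (0.00413). In Restored, Mxi1 in Type D exceeded Mxi1 in Type V by 1.04 ± 0.35 (limma adjusted p = 0.0485, and 0.0279 with the block). It kept this call in 1 of 6 fits that left out a line, that without Type D replicate 2. Without the others the adjusted p was 0.103 to 0.233.

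Mxd3, the family member known for expression in dividing cells, had the largest mean change of the 10 genes on restoration, a fall in every line. In Type D it went from 16.4, 24.7 and 17.7 to 3.08, 1.23 and 5.52 TPM, and in Type V from 25.1, 29.4 and 27.6 to 5.37, 5.34 and 15.5 TPM. Control and Restored values did not overlap in either type. The change was -2.38 ± 0.35 for the Type D lines (limma adjusted p = 9.03e-05) and -1.70 ± 0.35 for the Type V lines (0.00307). With CsA present it was -2.12 ± 0.35 (0.000379) and -1.88 ± 0.35 (0.00131). All 4 falls passed with the block too. Over all genes 5.05% and 4.57% passed as lower on restoration in Type D and Type V.

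The library of Type V replicate 3 in Restored stood apart for Mxd3, at 15.5 TPM where the same line with CsA had 5.21. Without that line the change in Type V was -2.15 and passed, while without Type V replicate 1 or 2 it was -1.53 and -1.42 (limma adjusted p = 0.0588 and 0.0734). In Restored, the difference of Type D from Type V in Mxd3 was -1.16 ± 0.35 (limma adjusted p = 0.0292), but the adjusted p was 0.191 with the block and 0.117, 0.165 and 0.223 without Type D replicate 1, Type D replicate 2 and Type V replicate 3. Proliferation markers moved with Mxd3: the summed TPM of 10 markers in Type D was 2039 to 2242 in Control and 877 to 1205 in Restored. In Type V it was 2022 to 2458 and 918 to 1425, with 7 of the 10 markers passing as lower in each type. The highest restored sum, 1425, belonged to Type V replicate 3. Mki67, a marker of cycling cells, fell by 3.07 and 2.03 on the log2 scale (limma adjusted p = 0.000716 and 0.0207). What part this fall has in that of Mxd3 was not tested.

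Mxd4, expressed in many resting and differentiating cells, had the highest mean TPM of the antagonists in 7 of 8 groups, restored Type D lines being the exception, where Mxi1 did. Its TPM in Type V was 87.3, 59.2 and 150.0 in Control and 267, 118 and 234 in Restored, higher in 3 of 3 lines. In Type D it was 52.9, 74.2 and 53.1 in Control and 67.2, 53.1 and 94.0 in Restored, higher in 2 lines and lower in 1. The Type V change of 1.07 ± 0.42 did not pass without the block (limma adjusted p = 0.117) and passed with it (0.000805) or without Type V replicate 2 (0.0336), and the Type D change was 0.23 ± 0.42 (0.83 and 0.414). Of the 6 fits that left out a line, the Type V change passed in that 1 only. The test of the difference between the types gave -0.85 (limma adjusted p = 1, and 0.106 with the block). In Restored the difference of Type D from Type V in Mxd4 was -1.47 ± 0.42 (limma adjusted p = 0.0221, and 0.02 with the block), with no overlap between 53.1 to 94.0 and 118 to 267 TPM. With CsA it was -1.47 as well (adjusted p = 0.0257, and 0.0225 with the block). Neither call held in the fit of these groups alone (0.0835 and 0.107). The first held without Type V replicate 2 or Type D replicate 3 and not without any of the other lines (0.0613 to 0.115), and the second held without Type V replicate 2 only (0.082 to 0.131 for the rest). In restored Type V lines, with and without CsA, Mxd4 rather than Myc had the highest mean of the 10 genes, 206 ± 78.0 against 126 ± 28.1 TPM without CsA, with ranges that overlapped because replicate 2 had 118 TPM of Mxd4.

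Mnt and Mga, which are expressed in most tissues, varied less. Mnt lay between 37.1 and 86.1 TPM and changed by 0.17 ± 0.29 in Type D and 0.02 ± 0.29 in Type V on restoration (limma adjusted p = 0.816 and 0.995). Type V replicate 1, at 42.4 to 45.5 TPM in its 4 libraries, sat within the range of the Type D lines (37.1 to 63.7), and the other two Type V lines stood at 66.5 to 86.1. Mga lay between 10.6 and 24.8 TPM and was higher in Restored than in Control in 6 of 6 lines, by 0.38 ± 0.25 in Type D and 0.24 ± 0.25 in Type V. Neither change passed (limma adjusted p = 0.378 and 0.679), and that in Type D passed with the block (0.0389). Neither gene passed between the types in Control. Mnt differed by -0.49 (limma adjusted p = 0.284, 95% interval -1.06 to 0.07), and by -0.75 without Type V replicate 1, which passed (0.0374). Mnt passed only in that 1 of 6 fits that left out a line. Mga differed by 0.03 (limma adjusted p = 0.958, interval -0.46 to 0.52).

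**Figure D2:**
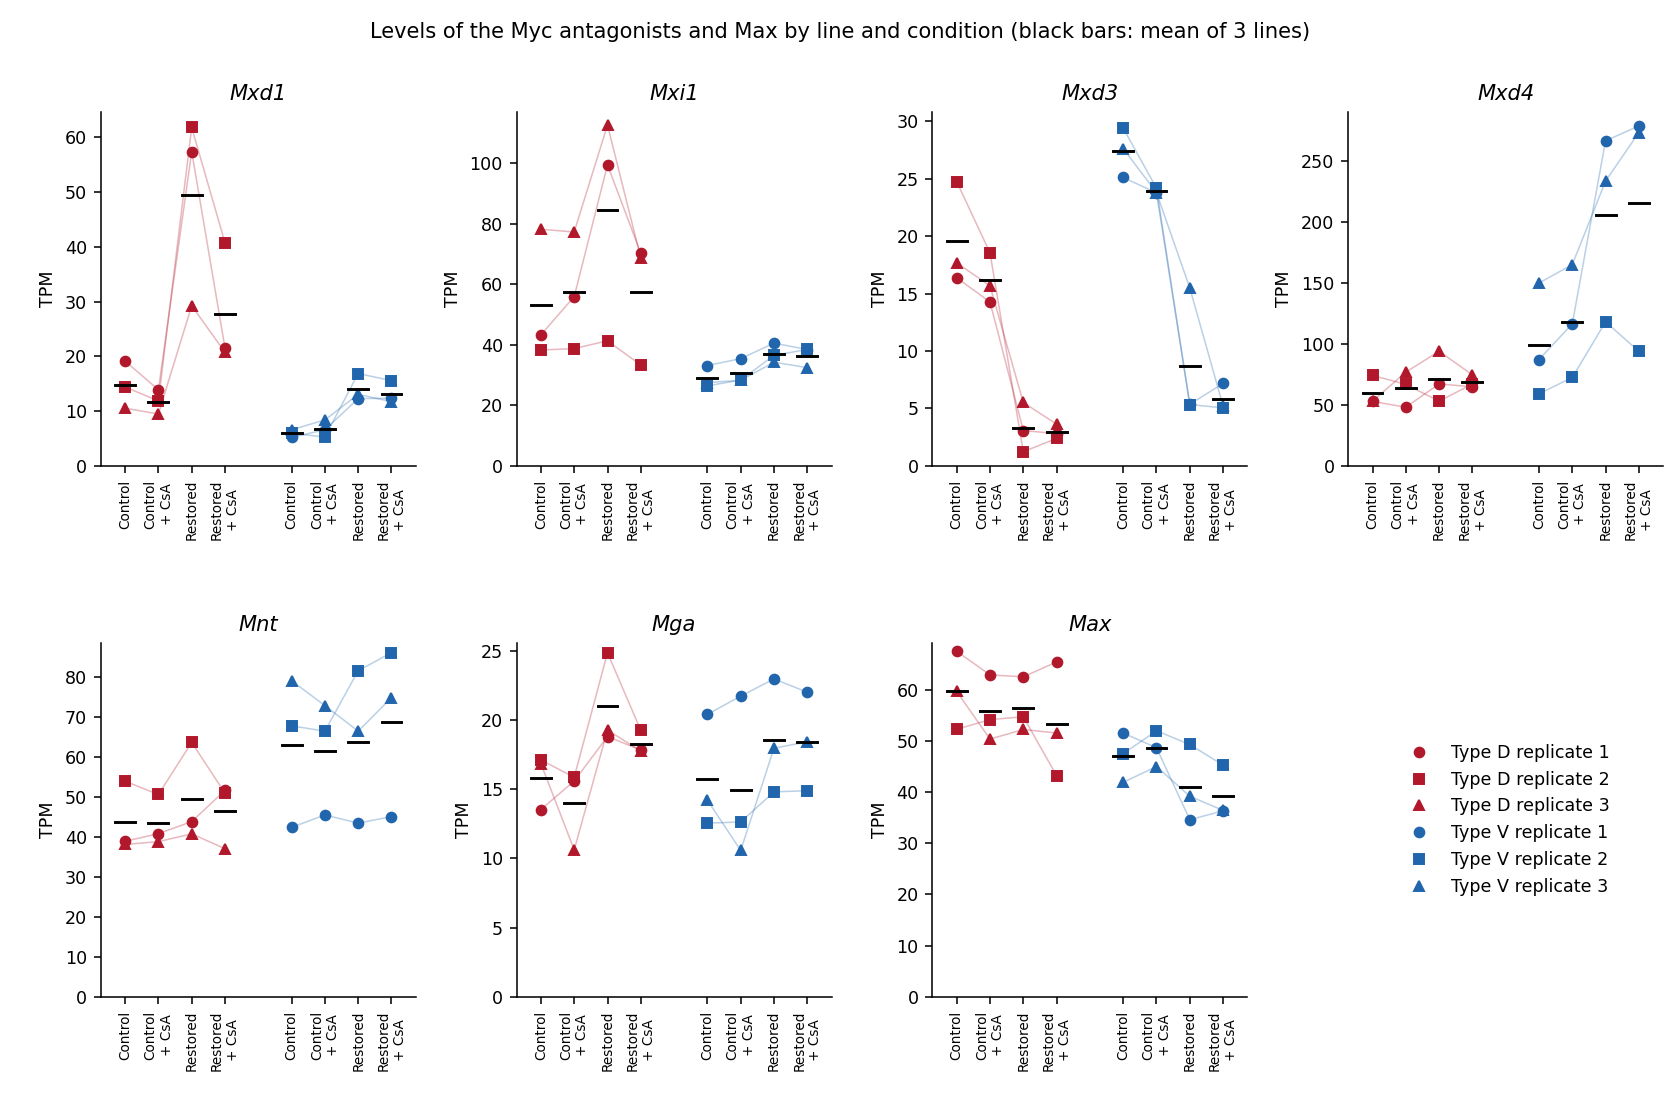
TPM (y axis, from 0) of the Myc antagonists and Max in the 4 conditions (x axis) for Type D (red) and Type V (blue), 1 symbol for each line joined over conditions and a black bar for the mean of 3 lines. Mxd1 rises and Mxd3 falls in all 6 lines on restoration, Mxd4 is higher in the 3 Type V lines after restoration, and Mxd1 in restored Type D lines is lower with CsA than without it, a difference that did not pass.

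The antagonists were also summed, as a description. The summed TPM of Mxd1, Mxi1, Mxd3, Mxd4 and Mnt went from 191 ± 18.3 (SD, n = 3) in Control to 258 ± 32.6 in Restored in Type D and from 224 ± 57.7 to 330 ± 61.9 in Type V, higher in 6 of 6 lines. With CsA in both arms the sum went from 193 ± 23.15 to 204 ± 8.37 in Type D, and in replicate 3 from 218 to 205. In Type V with CsA it went from 241 ± 52.1 to 340 ± 87.3. Over the summed Myc paralogs, the sums without CsA gave ratios of 0.625, 1.21 and 0.522 in Control and 0.858, 1.7 and 0.861 in Restored in Type D. In Type V the ratios were 0.846, 1.06 and 1.7 in Control and 2.32, 2.25 and 3.19 in Restored. The restored Type V lines thus had the highest ratios, above those of all Type D libraries. Type D replicate 2, with little Myc, was the Type D line nearest to them. The make-up of the sum differed: Mxd1 was 19.8 ± 8.87% of it in restored Type D lines and 4.49 ± 1.77% in restored Type V lines, and Mxd4 27.4 ± 5.16% and 60.8 ± 13.7%. Amounts of mRNA do not give the amounts of the protein pairs.

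**Figure D3:**
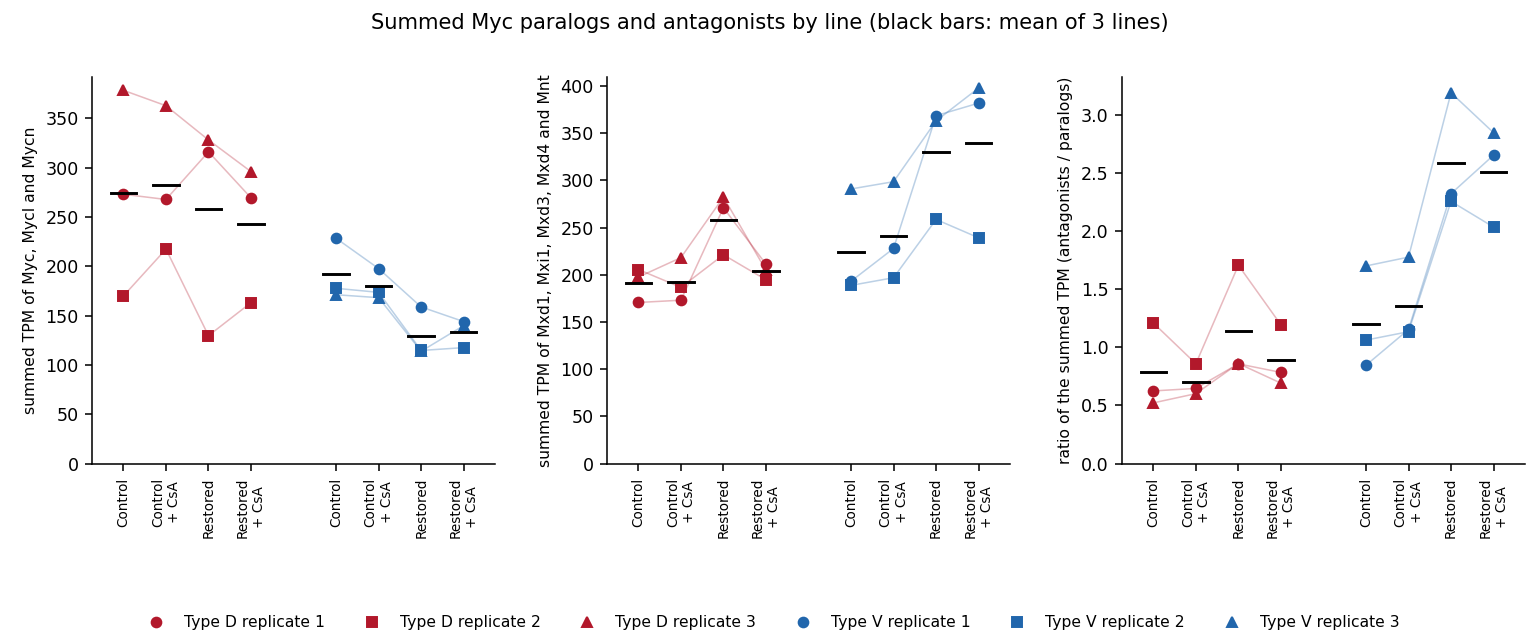
Summed TPM of Myc, Mycl and Mycn (left), summed TPM of Mxd1, Mxi1, Mxd3, Mxd4 and Mnt (middle) and their ratio (right, all y axes from 0) in the 4 conditions (x axis), Type D red and Type V blue, 1 symbol for each line and a black bar for the mean of 3 lines. The ratio is 2.03 to 3.19 in the 6 restored Type V libraries and 0.692 to 1.7 in the 6 restored Type D libraries.

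Counted over the 10 genes, restoration gave 3 calls in Type D (Mxd1 higher, Mycl and Mxd3 lower) and 2 in Type V (Mxd1 higher, Mxd3 lower), where 12.9% and 9.95% of all genes passed. With the block these became 5 and 5 of 10, where 45.3% and 40.6% of all genes passed, so the blocked counts are at the background. With CsA in both arms, restoration gave 2 calls in Type D (Mxd1, Mxd3) and 1 in Type V (Mxd3), against 8.89% and 7.71% of all genes, and 4 and 5 with the block, against 41.1% and 37.1%. Between the types 1 gene passed in Control + CsA (Mycl, 1.93 ± 0.57, limma adjusted p = 0.0289), 4 in Restored (Mxd1 and Mxi1 higher in Type D, Mxd3 and Mxd4 lower) and 2 in Restored + CsA (Mxd1 higher, Mxd4 lower), where 15%, 14.8% and 11.9% of all genes passed. With the block 1 passed in Control, 1 in Control + CsA, 4 in Restored (with Myc in place of Mxd3) and 1 in Restored + CsA, against 15.6%, 17.1%, 15.9% and 13.7%. Counts of 1 or 2 among 10 genes are near these shares. The comparisons share libraries and are not separate evidence.

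**Figure D4:**
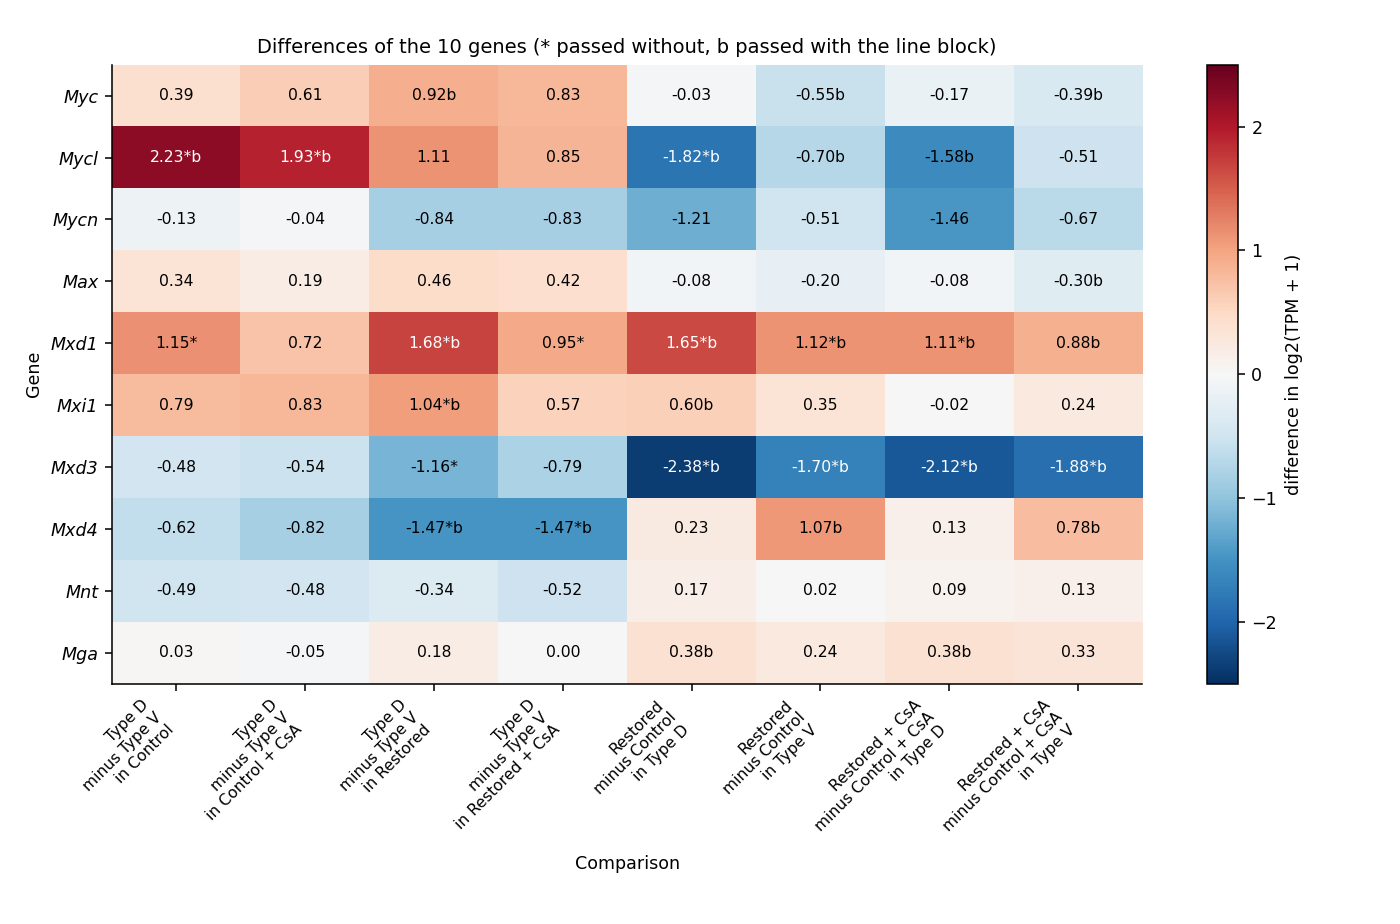
Differences in log2(TPM + 1) of the 10 genes (rows) in the 4 comparisons of types and the 4 of restoration (columns), in colour and as numbers, with * where the gene passed without and b where it passed with the cell line as a block. Mxd3 is lower and Mxd1 higher in all 4 restoration columns, and Mycl is highest in Type D before restoration.

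CsA by itself moved none of the 10 genes past the threshold. In Control + CsA against Control 0 of 10 passed in Type D, in Type V and averaged over both, and 0 had an unadjusted p under 0.05, while over all genes 0% passed and 114, 54 and 193 of 14104 genes had such a p. Mxd3 was lower with CsA in 6 of 6 lines before restoration, by 0.25 in Type D and 0.19 in Type V on average (limma adjusted p = 1 in each), and the summed proliferation markers were lower too, at 1678 to 1903 TPM in Type D and 1609 to 2147 in Type V. In Restored + CsA against Restored 0 passed as well, where 2 genes of 14104 (0.0142%) passed in Type D and where 0% did so in Type V and averaged over both. With the block 0 of 10 passed in each of these 6 comparisons too, against 0.0142%, 0% and 0.269% of all genes before restoration and 0.411%, 0% and 0.0142% after it.

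Mxd1 was the member nearest to a change with CsA. In restored Type D lines it was 21.5, 40.7 and 20.7 TPM with CsA and 57.4, 61.8 and 29.3 without it, lower in 3 of 3 lines by 1.38, 0.59 and 0.48. The mean of -0.81 ± 0.29 had an unadjusted p of 0.0123 and did not pass (limma adjusted p = 1, and 0.118 with the block). In restored Type V lines it was 12.4, 15.6 and 11.7 TPM with CsA and 12.3, 16.9 and 13.1 without (-0.08 ± 0.29, limma adjusted p = 1). Mxi1 was also lower with CsA in 3 of 3 restored Type D lines (-0.50 ± 0.35, limma adjusted p = 1, and 0.161 with the block). Mdm2, a target of p53, had means of 1512 ± 112 and 1178 ± 119 TPM in the same Type D groups, while Trp53 had 199 ± 16.1 and 218 ± 13.8. What part these have in the values of Mxd1 and Mxi1 was not tested.

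**Figure D5:**
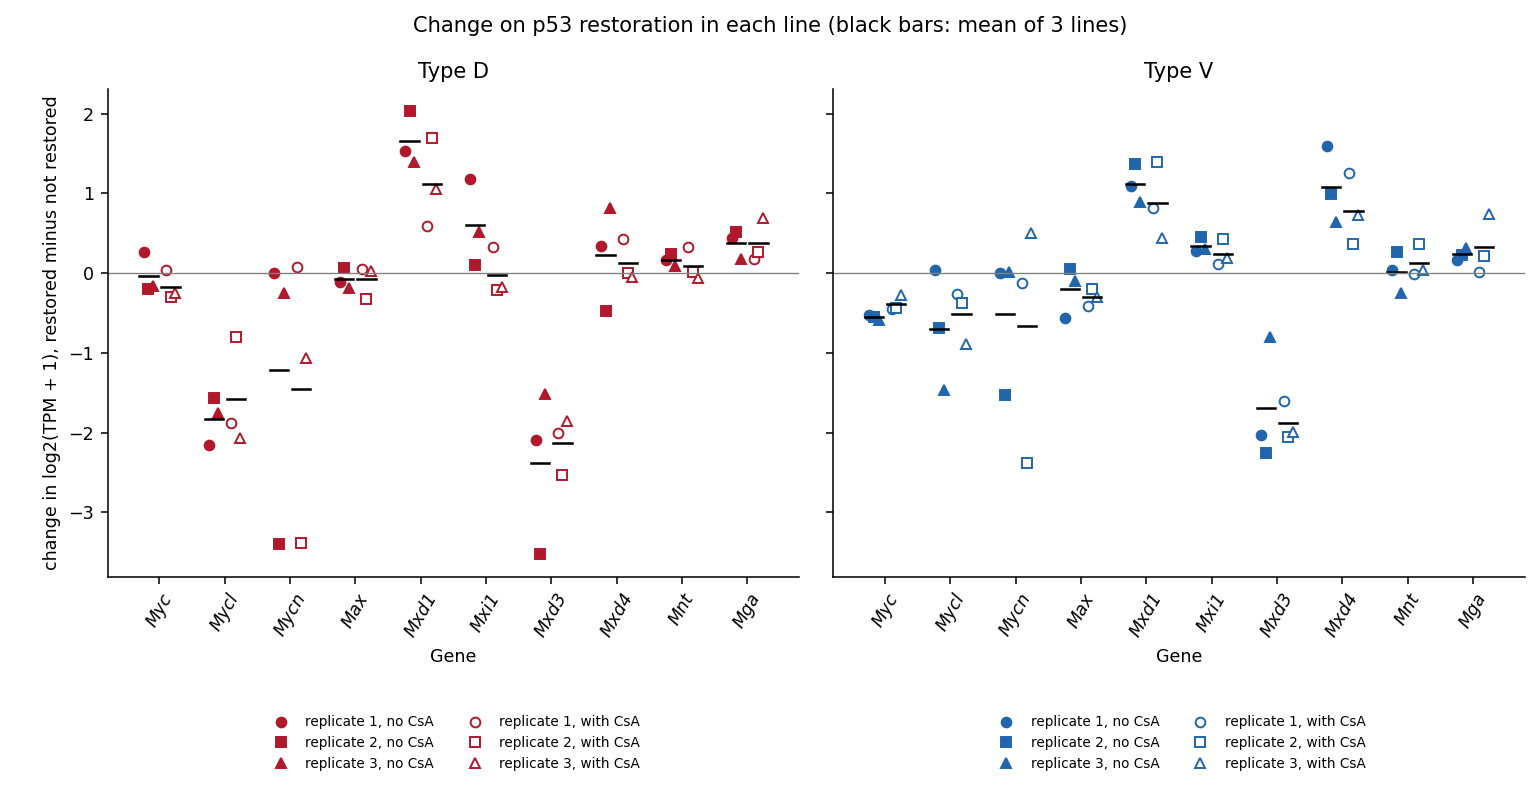
Change in log2(TPM + 1) on restoration (y axis) of the 10 genes (x axis) in each line of Type D (left) and Type V (right), filled symbols without CsA, open symbols with CsA in both arms, black bars for the mean of 3 lines. In Type V the 3 changes of Myc lie together at -0.52 to -0.58 without CsA, while those of Mycn spread from 0.01 to -1.53.

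Genes around the network were read from lists of known cofactors and targets. Of 25 genes that Myc is known to activate, 15 fell and 0 rose on restoration in Type D and 16 fell and 0 rose in Type V, with medians of -0.59 and -0.82 against 0.07 and 0.05 over all genes tested. Over all genes 5.05% and 4.57% passed as lower. With the block 20 fell in Type D, and 23 fell and 1 rose in Type V. In either direction 45.3% and 40.6% of all genes passed with the block. With CsA in both arms fewer passed, 4 falls in Type D and 8 in Type V, where 8.89% and 7.71% of all genes passed. CsA and the block together gave 16 falls and 1 rise in Type D and 20 falls in Type V. Of all genes, 41.1% and 37.1% passed there in either direction. The medians with CsA in both arms were -0.50 and -0.65. The falls included Srm, which makes spermidine (-0.86 and -0.99, limma adjusted p = 0.0168 and 0.00774), Impdh2, an enzyme of guanine nucleotide synthesis (-0.91 in Type D, adjusted p = 0.00236), Ppat, the first enzyme of purine synthesis (-0.88 in Type D, adjusted p = 0.0262), and in Type V Nop16, a nucleolar protein (-1.03, adjusted p = 6.07e-05), and Hspd1, a mitochondrial chaperone (-1.04, adjusted p = 0.009). Between the types in Control 3 of the 25 passed, close to the 13.1% over all genes. Ldha, lactate dehydrogenase, and Ccnd2, a cyclin, were higher in Type D (1.83 and 1.58, limma adjusted p = 0.0197 and 0.0092), and Nme1 was lower (-0.72, adjusted p = 0.000621). The change of Myc itself beside these falls was -0.03 in Type D and, passing only with the block, -0.55 in Type V, and the proliferation markers given above fell with them.

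For the lists that follow, 12.9% of all genes passed on restoration in Type D and 9.95% in Type V, and 45.3% and 40.6% with the block, and counts near these shares say nothing of a list. Of 9 genes that Myc is known to repress, 8 were tested and 1, Cdkn1a, rose on restoration in both types (4.17 and 4.80, limma adjusted p = 3.46e-08 and 4.9e-09). Cdkn1a, the cell cycle inhibitor p21, is also a direct p53 target. In Control, Ndrg2 was higher and Thbs1, thrombospondin, lower in Type D (4.43 and -4.97, limma adjusted p = 0.00039 and 0.000427), and Cdkn1a was higher (1.07, adjusted p = 0.0245). With the block 3 rose and 1 fell in Type D and 1 rose and 2 fell in Type V, near the blocked shares. Medians on restoration were 0.85 in Type D and -0.14 in Type V.

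Among 10 Myc cofactors, 1 rose and 1 fell in Type D on restoration and 4 fell in Type V (1 and 4, and 0 and 7, with the block). The Type D counts, with and without the block, are near the shares over all genes. Ruvbl1, an ATPase of chromatin complexes, fell in both (-0.88 in each, limma adjusted p = 0.00266 and 0.00351), Ep400 rose in Type D (1.33, adjusted p = 0.00577), and Kat2a and Ruvbl2 fell in Type V (-0.77 and -0.72, adjusted p = 0.0234 and 0.0308). Kat5 and Wdr5 were lower in Type D than in Type V in Control (-0.69 and -0.42, adjusted p = 0.0112 and 0.0373). Of 8 corepressor genes of the Mxd proteins and Mnt, Sap30 fell in both types (-0.97 and -1.44, limma adjusted p = 0.0024 and 7.38e-05) while 3 fell in each type with the block, and Sin3b was lower in Type D in Control (-1.02, adjusted p = 0.00615). Of 8 partners of Mga in PRC1.6, 1 rose and 2 fell in Type D (Rnf2 0.60, L3mbtl2 -0.71 and Cbx3 -0.54) and 2 fell in Type V (Pcgf6 -0.78 and L3mbtl2 -0.67), with limma adjusted p between 0.0111 and 0.0489 (4 fell in Type V with the block, near the blocked share). Of 6 extended partners tested out of 7, among them the Max-like factor Mlx, 0 passed on restoration or between types in Control, while 0, 1 and 1 had an unadjusted p under 0.05 in limma in Type D, Type V and between types. With the block 1 passed in each of these comparisons.

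Of 9 genes that set the stability of Myc protein, 1 rose and 2 fell in Type D and 3 fell in Type V on restoration (2 and 4, and 1 and 4, with the block), with medians of -0.18 and -0.15. Aurka, a mitotic kinase that also holds N-Myc back from degradation, fell by 2.93 and 2.09 (limma adjusted p = 3.46e-08 and 2.64e-06), and Cip2a, an inhibitor of the phosphatase that marks Myc for degradation, fell by 2.25 and 1.97 (9.76e-06 and 6.48e-05). Fbxw7, a ubiquitin ligase subunit for Myc, rose in Type D by 0.57 (limma adjusted p = 0.0352), and Skp2, another ligase subunit, fell in Type V by 0.92 (0.0326). Protein was not measured here.

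The genome around the 3 paralogs was read for genes within 500 kb, as log2 deviations from the mean of the 6 lines in Control. At Mycn, where the deviations ran from -2.02 to 2.31, Ddx1 ran from -0.33 to 0.32 and Nbas from -0.35 to 0.21. Replicate 2 of Type D, with 19.2 TPM of Mycn, had 198 TPM of Ddx1, a gene often amplified with Mycn, in a range of 149.8 to 237 TPM over the 6 lines. At Mycl, which ran from -1.90 to 1.76, the 9 tested neighbours differed in width. Mfsd2a ran nearly as wide, from -1.75 to 1.36, but was highest in Type V replicate 2 (10.1 TPM), where Mycl was 1.13. Cap1 (-0.54 to 0.71) and Pabpc4 (-0.51 to 0.46) were highest in replicates 1 and 3 of Type D, the lines with the most Mycl. Macf1 ran from -0.51 to 0.67 and was highest in Type V replicate 1, the line with the least Mycl, and the other five, Trit1, Ppie, Ppt1, D830031N03Rik and Bmp8a, stayed between -0.35 and 0.42. At Myc the tested neighbour was Pvt1, a noncoding RNA gene known as a p53 target, which stood at 5.4 to 11.5 TPM in Control. Chosen after its values were seen, Pvt1 rose on restoration from 8.35, 5.4 and 11.5 to 27.8, 35.1 and 33.9 TPM in Type D and from 8.48, 8.96 and 10.7 to 34.9, 38.5 and 40.2 TPM in Type V (1.87 ± 0.19 and 1.91 ± 0.19, limma adjusted p = 1.92e-06 and 2.15e-06). The groups did not overlap in either type. Myc in the same libraries went down in 5 of 6 lines, with mean changes of -0.03 in Type D and -0.55 in Type V. Neither change of Myc passed without the block (limma adjusted p = 0.39 in Type V), and that in Type V passed with it (0.00265).

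The genes whose levels followed each paralog most closely over the 24 libraries were 4933440M02Rik, Inpp4b and Pip5k1c for Myc (Pearson r = 0.894, 0.891 and 0.883), Prss35, Tmem200a and Cttnbp2 for Mycl (0.959, 0.928 and 0.915) and Glrx and Trpm6 for Mycn (0.909 and 0.894). The 24 points come from 6 lines and share them, so these values describe the libraries only.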

How the data were processed

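The authors deposited TPM values for 25239 genes in 24 libraries, which sum to 1000000 in each and hold no counts, so depth is unknown and count models were not used. Libraries were stranded, single-end and made from mRNA. The study names kallisto or HISAT2, and the submitters' notes name HISAT2, mm10 and GRCm39, so which aligner and build lie behind the TPM is not given in the sources used here. Positions and promoters are from GRCm38 references, and Myc has no promoter among them.

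Values were analysed as log2(TPM + 1), a pseudocount that understates changes of low genes. The 14104 genes that reached 1 TPM in 3 or more libraries entered 1 limma fit (limma 3.58.1, R 4.3.3, moderated with a trend) that had a coefficient per group, over all 8 groups, and no block. P-values were two-sided and adjusted by Benjamini-Hochberg over all genes within each of 15 comparisons. A gene passed, and is said to rise or fall, at an adjusted p under 0.05. Scripts were tested on simulated data. Figures used matplotlib 3.10.9.

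The 4 libraries of a line pair it across conditions, as the labels state. After removal of group means, r was 0.599 to 0.929 over the 36 pairs from 1 line and -0.727 to 0.0438 over the 96 pairs from unlike lines of the same type. The line as a block was an alternative, as a fixed term within lines and as a random term (correlation 0.736) between types. In each group the 3 samples are different lines, and 0 columns were identical.

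The members and lists were chosen with earlier results of these data known. Named genes are the 10 members and, from each list, up to 3 with the largest change among those that passed and moved the same way in all 3 lines, in the types in Control and in restoration of each type, along with checks and markers and the 3 genes most like each paralog. Some genes that this rule names are not reported here. The alternatives tried were each line left out, the block, the 2 compared groups alone, a minimum change of 1 log2, median-ratio scaling (factors 0.887 to 1.12), quantile normalization, a TPM floor of 5 or none, and 0.1 as pseudocount.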

Additional observations from a re-analysis of the deposited data

How the results depend on the processing

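Followed through 14 alternatives were the 42 results for single genes that passed in at least 1 setting. Of these, 0 changed direction, and 17 passed as reported. Scaling mattered little: a TPM minimum of 5 and median-ratio scaling changed 0 of the 42 calls, a pseudocount of 0.1 and quantile normalization 1 each and no filter 3. Fitting the 2 compared groups alone, with fewer samples behind the spread, lost 13 of the 17 calls. The number of the 10 genes that passed then fell to 0 between types in Control, to 0 in Control + CsA, to 1 in Restored and to 0 in Restored + CsA, and on restoration to 1 in Type D, 0 in Type V and 1 in Type D with CsA. With the cell line as a block, which uses the pairing, it was 1 between types in Control and 1 in Restored + CsA, and on restoration 5 in Type D, 5 in Type V, 4 in Type D with CsA and 5 in Type V with CsA. The block left the other counts within 1.5 times. Between types in Restored + CsA 1 gene passed without the filter and 1 with the minimum of 1 log2, and on restoration in Type D with CsA 1 passed after quantile normalization. The cause was not tested.

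With each line left out in turn, the number that passed ranged from 0 to 4 between types in Control, from 0 to 3 in Control + CsA, from 1 to 4 in Restored and from 0 to 3 in Restored + CsA. On restoration it ranged from 2 to 4 in Type D, from 0 to 2 in Type V, from 2 to 2 in Type D with CsA and from 1 to 2 in Type V with CsA. Between types, the highest counts came when replicate 2 of either type was left out. TPM gives no depth, so values of Mycl and Mycn under about 1 TPM cannot be separated from 0.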
